A study of Mus musculus with 3 samples.

Results

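The mouse microRNAs described here are those whose name carries no arm, that is, lacks the 5p or 3p ending. Each of the 3 liver libraries listed 1908 names, and 322 of these had no arm. Members were chosen on measured reads, with at least 10 reads summed over the 3 libraries, and with their rise after reperfusion already known. The red-cell microRNA miR-451a was left out, and no name with a number of the imprinted Dlk1-Dio3 cluster reached the minimum. This left 50 members of the 449 microRNAs with at least 10 reads, and the other 398 besides miR-451a were named with an arm. Of the remaining names without an arm, 219 had 0 reads and 52 had 1 to 9 reads. The members with fewest reads, miR-3970 (4, 3 and 3 reads in the Sham, WI and IR libraries) and miR-6412 (2, 7 and 1 reads), had 10 reads each. Just outside were miR-1668, miR-1949 and miR-5122 with 9 reads, and miR-3472, miR-3473e and miR-5114 with 8 reads.

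The study sequenced small RNA from the livers of male C57BL/6J mice aged 8-10 weeks, in groups of 6 mice. Sham mice had the abdomen opened and then a wait of 90 min. WI (warm ischemia) mice had the blood supply of the left and median lobes occluded for 90 min, and IR mice had the same occlusion followed by 120 min of reperfusion. One library stands for each group, and the sources used here do not say whether it pooled several mice. There was therefore no replicate check among the libraries. The IR livers were also taken later after surgery than the others, so reperfusion and elapsed time cannot be told apart.

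A microRNA is cut from a hairpin precursor, and either arm of the hairpin can yield the mature strand that is loaded into Argonaute. Bases 2 to 8 of that strand, the seed, pair with messenger RNAs and so set most targets. Databases add 5p or 3p when reads from both arms are known, and a name without an arm is given when 1 mature product is listed. Such entries include close relatives of abundant families, such as miR-378c and let-7j, and also entries that lie inside small nucleolar RNAs (snoRNAs) or match repeated sequence.

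Mature sequences were read from a RefSeq table on GRCm38.p6, which matched 37 of the 50 names. The first set is shown because these 10 members had at least 50 reads and rose in IR against Sham, and the seed is in capitals.
miR-2137: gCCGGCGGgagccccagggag
miR-5100: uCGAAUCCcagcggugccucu
miR-6240: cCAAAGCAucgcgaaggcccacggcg
miR-1195: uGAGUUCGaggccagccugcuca
miR-5121: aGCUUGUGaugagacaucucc
miR-5126: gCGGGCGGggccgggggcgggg
miR-690: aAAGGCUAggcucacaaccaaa
miR-3535: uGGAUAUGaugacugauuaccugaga
miR-3963: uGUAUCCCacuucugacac
miR-3470b: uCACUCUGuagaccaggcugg

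The second set is shown because these members lay close to Sham in IR or were lower there, and because 5 of them are relatives of arm-named families. Seeds are again in capitals.
miR-378c: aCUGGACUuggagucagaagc
miR-378d: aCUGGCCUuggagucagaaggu
miR-378b: cUGGACUUggagucagaaga
let-7j: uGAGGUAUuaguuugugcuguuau
miR-101c: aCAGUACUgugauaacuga
miR-484: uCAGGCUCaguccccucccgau
miR-3968: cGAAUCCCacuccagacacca
miR-6238: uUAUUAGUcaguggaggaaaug

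No 2 of the 37 sequences had the same seed. miR-378b and miR-378c shared a run of 19 bases shifted by 1 position, which gave them different seeds. The risers of the first set therefore do not form a seed family.

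The Sham, WI and IR libraries held 3844133, 5064014 and 3784539 microRNA reads, and levels are given as counts per 1000000 reads (CPM) after TMM scaling, with factors between 0.961 and 1.03. A count of 0 allowed a level of up to 0.758, 0.617 and 0.785 CPM (3 counts) in the 3 libraries. Intervals are 95% and cover counting error only, since copies made in PCR are not independent molecules. The hepatocyte markers (3 of 3 detected) summed to 266266, 283950 and 258895 CPM. Most of that sum was miR-192-5p (243175, 258042 and 236770 CPM), while miR-122-5p was at 15960, 18999 and 15364 CPM. The 4 red blood cell markers summed to 5055, 4781 and 9020 CPM, and the 4 leukocyte markers to 3074, 3037 and 2792 CPM. Most of the leukocyte sum was miR-142-5p (2735, 2672 and 2342 CPM), while miR-223-3p was at 110, 109 and 236 CPM. Of the 3 striated muscle markers, 1 had at least 10 reads, and the list summed to 6.82, 23.8 and 75.1 CPM. The red blood cell and muscle lists and miR-223-3p were thus highest in the library where most members were highest, and their part in the results was not tested. In bulk liver, fewer cells of a type and less RNA per cell cannot be told apart.

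As a group the members took a larger share of the microRNA reads in the IR library. In the paper's read statistics, a smaller part of the clean reads aligned to the genome in IR than in Sham or WI. The part of this difference in the results was not tested. In Sham the members held 16589 reads, which is 0.432% (Wilson interval 0.425 to 0.438). The WI library gave 18575 reads or 0.367% (0.362 to 0.372), and the IR library 31311 reads or 0.827% (0.818 to 0.837). The gain came mostly from 1 entry. miR-6240 supplied 10826 of the 14722 reads by which IR exceeded Sham, and made up 19.8%, 14.9% and 45.1% of the members' reads in the 3 libraries. Without miR-6240 the shares were 0.346%, 0.312% and 0.454%. Without miR-2137, miR-5100, miR-6240 and miR-1195 they were 0.345%, 0.310% and 0.416%. The group was dominated by few entries in every library, since the 6 with most reads held 86.0%, 85.0% and 84.2% of its reads.

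**Figure D1:**
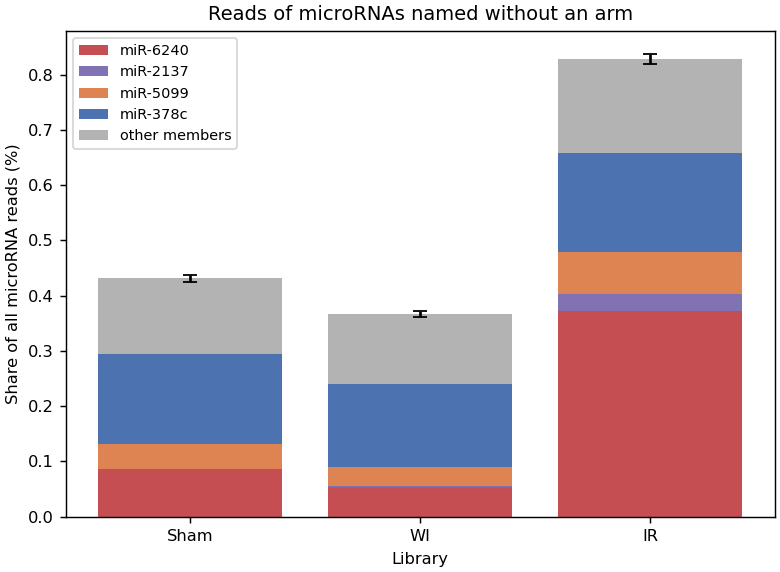
Share of all microRNA reads (%) held by the members in the Sham, WI and IR libraries, 1 library each, stacked by miR-6240, miR-2137, miR-5099, miR-378c and the other members; error bars are the 95% Wilson interval of the whole bar. The miR-6240 segment grows from 0.0856% in Sham and 0.0547% in WI to 0.373% in IR, while miR-378c stays between 0.151% and 0.178%.

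Levels differed widely among members. The total over the 3 libraries ran from 10 to 20693 reads with a median of 34.5, against 231.5 for arm-named microRNAs, and 48 members were detected in all 3 libraries. The level was highest in IR for 29 members (58%), in WI for 11 and in Sham for 10. Among arm-named microRNAs it was highest in IR for 34.2%, in WI for 39.7% and in Sham for 26.1%.

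**Figure D2:**
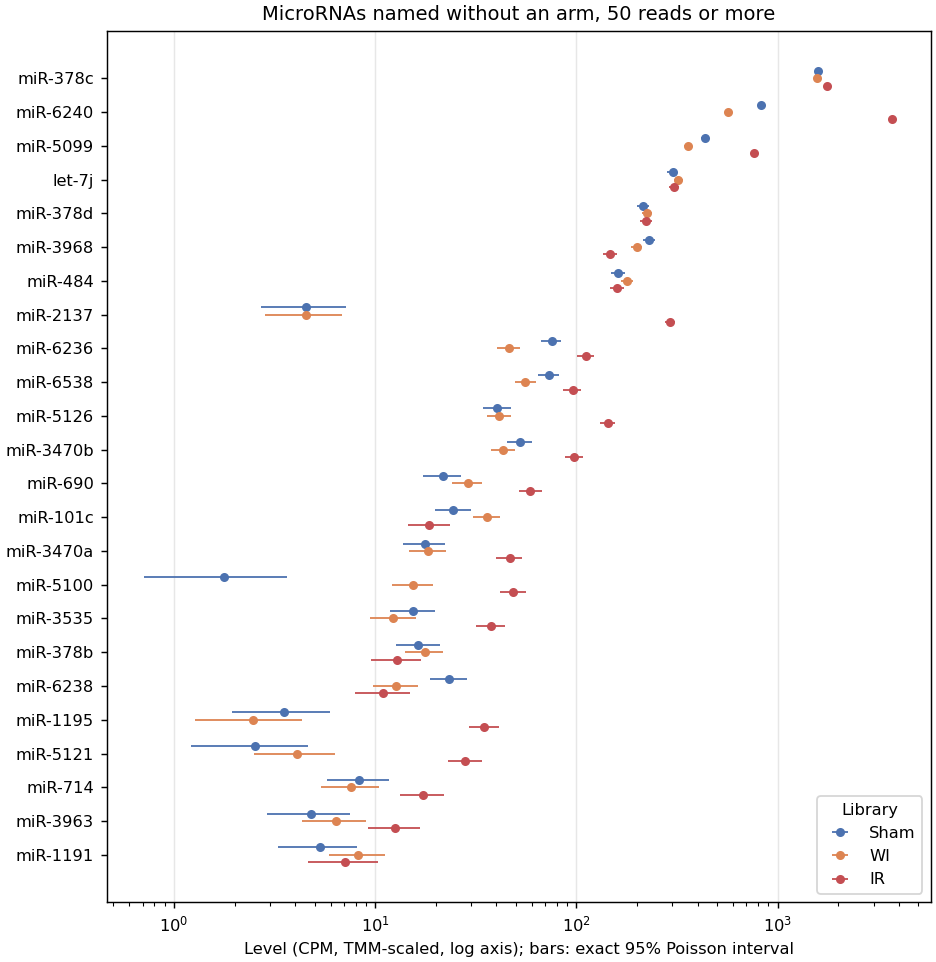
Level of the members with at least 50 reads in the Sham, WI and IR libraries (CPM, log axis, 1 library each), with exact Poisson 95% intervals of counting error. miR-2137 lies at 4.55 and 4.52 CPM in Sham and WI and at 292 CPM in IR, whereas miR-378c lies between 1569 and 1766 CPM in all 3.

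miR-2137 showed the widest gap of any member. Its reads numbered 18, 22 and 1115 in the Sham, WI and IR libraries, which are levels of 4.55, 4.52 and 292 CPM. Sham and WI lay within counting error of each other, and IR was 64.1-fold above Sham (interval 40.4 to 109) and 64.5-fold above WI (42.4 to 103). Its sequence, 21 bases with a GC content of 85.7%, occurs once in the mouse genome, on the plus strand of chromosome X at 70237452-70237472. That site is in an intron of Zfp185, the gene of a zinc finger protein with a LIM domain, on the same strand. All coordinates here are exact matches to NCBIM37 (mm9), the build in the study's methods, and the labels name mm10.

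miR-6240 was the member with most reads in IR. Sham, WI and IR gave 3291, 2768 and 14117, or 831, 569 and 3692 CPM. IR was 4.44-fold above Sham (4.28 to 4.62) and 6.49-fold above WI (6.23 to 6.76), and WI was below Sham at a ratio of 0.685 (0.651 to 0.720), under the limit for a call with TMM scaling but past it with DESeq2 size factors (log2 -0.59). The library after occlusion alone was thus the lowest of the 3 for this entry. Its 26 bases occur once in the assembled genome, on chromosome 5 at 115301982-115302007, outside other genes annotated in GENCODE vM1. Sequence missing from the assembly or that annotation was not searched, so other sources of these reads were not tested.

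miR-5100 was called higher in WI against Sham and again in IR against WI. Its reads went from 7 in the Sham library to 75 after occlusion and 186 after reperfusion (1.77, 15.4 and 48.6 CPM). WI was 8.72-fold above Sham (4.03 to 22.4), IR was 3.16-fold above WI (2.40 to 4.18), and IR was 27.5-fold above Sham (13.1 to 69.4). No interval of the 3 ratios held 1. The sequence occurs once, on chromosome 11 at 60542200-60542220, in an intron of Smcr7, a gene of mitochondrial dynamics, on the same strand. The paper lists a quantitative PCR primer for miR-5100 among its selected microRNAs, and reports that PCR bore out the changes. Those PCR values were not used here.

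miR-1195 again separated IR from both other libraries. Reads were 14, 12 and 133 (3.54, 2.47 and 34.8 CPM). IR was 9.84-fold above Sham (5.66 to 18.5) and 14.1-fold above WI (7.81 to 28.0). WI against Sham gave a ratio of 0.698 with an interval that holds 1 (0.295 to 1.63). Its 23 bases match at 2 places, chromosome 17 at 71209898-71209920 and chromosome 2 at 144040013-144040035, both outside other genes, so reads cannot be assigned to 1 of them.

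To count how widely the IR rise was shared, a microRNA was called higher or lower when it differed by more than 1.5-fold and Fisher's exact test, two-sided and run on the reads and scaled totals, gave a p-value under 0.01. A call compares 2 libraries, not 2 conditions. Against Sham, 18 members were called higher in IR and 2 lower, where 9.8% and 2.45% of all 449 microRNAs were called. Against WI, 21 members were called higher and 1 lower, with 10.9% and 5.35% called over all microRNAs. Because the members were chosen with this rise known, nothing is read from those counts beside the background. The 17 members called higher in IR against both libraries were miR-1195, miR-1960, miR-2137, miR-3470a, miR-3470b, miR-3473a, miR-3535, miR-3963, miR-5099, miR-5100, miR-5121, miR-5126, miR-6240, miR-690, miR-696, miR-709 and miR-714. Of the 398 arm-named microRNAs, 18 were called higher in IR against both libraries, and nothing is read from that contrast either. miR-1895 was called higher against Sham alone, and miR-3473b, miR-6236, miR-6538 and miR-8094 against WI alone. Calls in any of the 3 comparisons were absent for 25 of the 50 members, a count that was not made over all microRNAs. The rise was thus called in part of the group only.

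The median log2 fold change of the members was 0.41 for IR against Sham and 0.67 for IR against WI, where all 449 microRNAs had 0.017 and -0.033. Of the members, 34 were above Sham and 32 above WI at any size, and for 21 and 22 of them the interval lay wholly above 1. Members with 10 to 49 reads (n = 26) had a median of 0.047 for IR against Sham, and arm-named microRNAs in that read range (n = 106) had 0.045. From 50 reads to below 500 the medians were 1.33 (12 members) and -0.13 (130 arm-named), and with 500 reads or more 0.48 (12 members) and 0.024 (162 arm-named). The read ranges count IR reads too. miR-1195 and miR-5121 passed 50 reads, and miR-2137, miR-5126 and miR-3470b passed 500, only with their IR reads. A rise in IR thus favored entry to the higher ranges, and nothing is read from the contrast of their medians. In the lowest read range the medians for IR against WI were 0.31 and -0.049, and 5 of the 26 members were called higher against Sham beside 4 of the 106 arm-named microRNAs. Those 5 members reached the minimum of 10 reads only with their IR reads, so nothing is read from that count. Scaling by reads aligned to the genome, in place of microRNA reads, lowered the members' median for IR against Sham to 0.23. The same scaling lowered the median of all microRNAs to -0.15. With it 18 members were called higher, and the share called over all microRNAs is not given here.

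**Figure D3:**
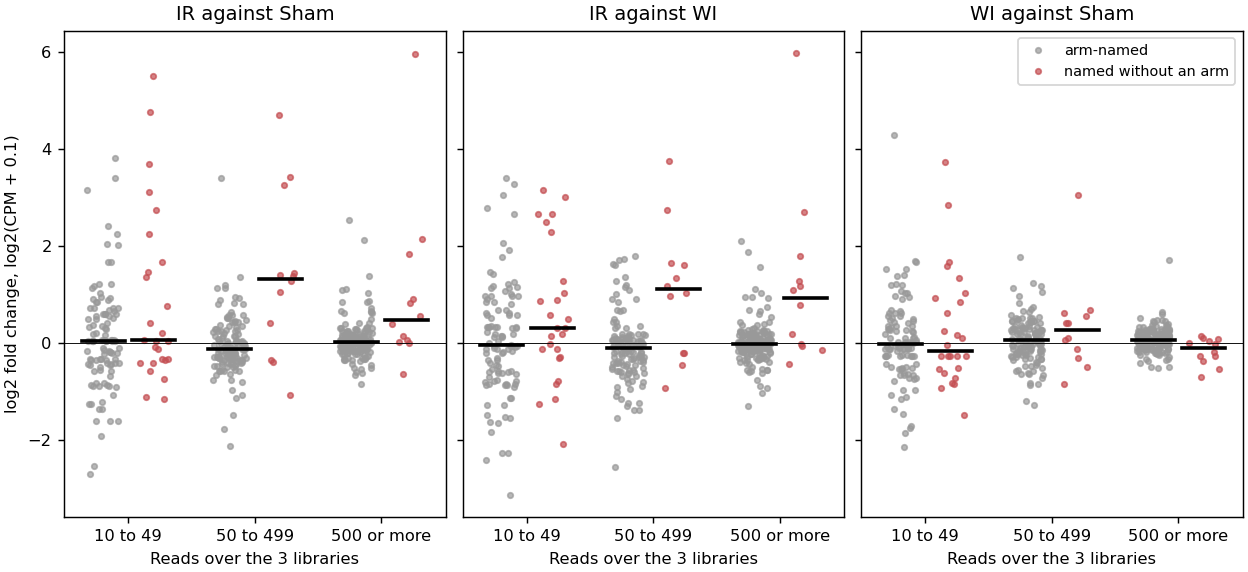
Log2 fold change on log2(CPM + 0.1) of each arm-named microRNA (grey) and each member (red) in the 3 comparisons, split by reads over the 3 libraries, with a black line at each median. From 50 reads to below 500 the IR against Sham lines stand at 1.33 for members and -0.13 for arm-named microRNAs, and miR-2137 is the highest point at 5.97. The read ranges count IR reads, so a rise in IR favors a higher range.

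Among the other members with at least 50 reads, miR-5121 and miR-5126 rose most in IR against Sham. miR-5121 had 10, 20 and 107 reads and stood 11.1-fold higher in IR than in Sham (5.80 to 23.8). Its sequence lies inside Snord33, a box C/D snoRNA that guides methylation of ribosomal RNA, within the ribosomal protein gene Rpl13a on chromosome 7 at 52382295-52382315. miR-5126, whose 22 bases are all G or C, had 160, 201 and 548 reads and a ratio of 3.55 (2.97 to 4.26). Its reads in Sham and WI differed little once scaled (ratio 1.02).

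miR-690, miR-3470a and miR-3963 rose to a similar extent. miR-690 had 86, 140 and 226 reads, and IR was 2.72-fold above Sham (2.11 to 3.53). miR-3470a had 70, 89 and 178 reads with a ratio of 2.63 (1.99 to 3.52). miR-3963 had 19, 31 and 48 reads with a ratio of 2.62 (1.51 to 4.71). With TMM scaling all 3 were ordered Sham, WI, IR from low to high in CPM, but only for miR-690 did the interval for WI against Sham exclude 1 (1.01 to 1.75). The call of miR-3963 against WI was lost with genome-aligned scaling (log2 0.63) and with thinning (0.86), and miR-3470a in WI was below Sham with library totals.

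The snoRNA entry miR-3535 and the abundant miR-5099 followed another order, with WI lowest. miR-3535 had 61, 60 and 144 reads and was 2.44-fold above Sham in IR (1.80 to 3.35). It lies inside SNORD20 in an intron of Ncl, the gene of the nucleolar protein nucleolin, on chromosome 1 at 88248637-88248662. miR-5099 had 1724, 1749 and 2926 reads, or 435, 360 and 765 CPM, and IR was 1.76-fold above Sham (1.66 to 1.87) and 2.13-fold above WI (2.01 to 2.26). The same order held for miR-3470b with 207, 211 and 374 reads and for miR-714 with 33, 37 and 66 reads, which were called higher in IR against both libraries. The interval for WI against Sham held 1 for miR-3535 (0.551 to 1.16), miR-3470b (0.682 to 1.01) and miR-714 (0.555 to 1.51), so WI and Sham were not told apart for these 3.

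The GC-rich entries miR-6236 and miR-6538 were called higher against WI but not against Sham, and WI was their lowest library. miR-6236 had 298, 224 and 425 reads, and WI was below Sham at a ratio of 0.612 (0.512 to 0.730), a call that was lost with genome-aligned scaling (log2 -0.55). miR-6538 had 288, 271 and 366 reads, and WI against Sham gave 0.766 (0.646 to 0.907). For both, the interval for IR against Sham also lay above 1, at a fold below the 1.5 limit.

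Some risers had few reads, and every entry named here reached the read minimum only with its IR reads. Their calls were thus favored by the choice of members. miR-709 had 3, 4 and 28 reads, miR-1960 had 1, 3 and 17, and miR-3473a had 2, 3 and 15. With 1 to 3 Sham reads their intervals are wide, and the ratio of miR-709 was 9.67 (2.99 to 49.7). miR-696 had 0, 3 and 17 reads, and its IR level was 5.87-fold the 3-count floor of Sham. The lower limit of its exact interval for IR over Sham was 4.27. miR-1895 had 0, 6 and 10 reads, an IR level 3.45-fold that floor, with a lower limit of 2.32. Those 2 entries were the members not detected in Sham. miR-3473b had 3, 1 and 10 reads and miR-8094 had 5, 3 and 13, and both were called against WI alone.

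In IR, 2 members (4%) were called lower against Sham and 1 (2%) against WI. Over all microRNAs 2.45% and 5.35% were called lower, so nothing is read from these small counts. At any size, 16 members were below Sham and 18 below WI. miR-3968 had 910, 973 and 562 reads (230, 200 and 147 CPM), and IR was 0.640 of Sham (0.575 to 0.711). miR-6238 had 92, 62 and 42 reads, and IR was 0.473 of Sham (0.320 to 0.688). For miR-6238 the lower level was already present in WI, at 0.549 of Sham (0.391 to 0.765), and IR against WI held 1 (0.568 to 1.30). miR-101c had 97, 174 and 71 reads and was called lower in IR against WI, at a ratio of 0.519 (0.388 to 0.688), and WI was its highest library. Its ratio was 1.46 for WI against Sham (1.13 to 1.89) and 0.758 for IR against Sham, with an interval that holds 1.

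**Figure D4:**
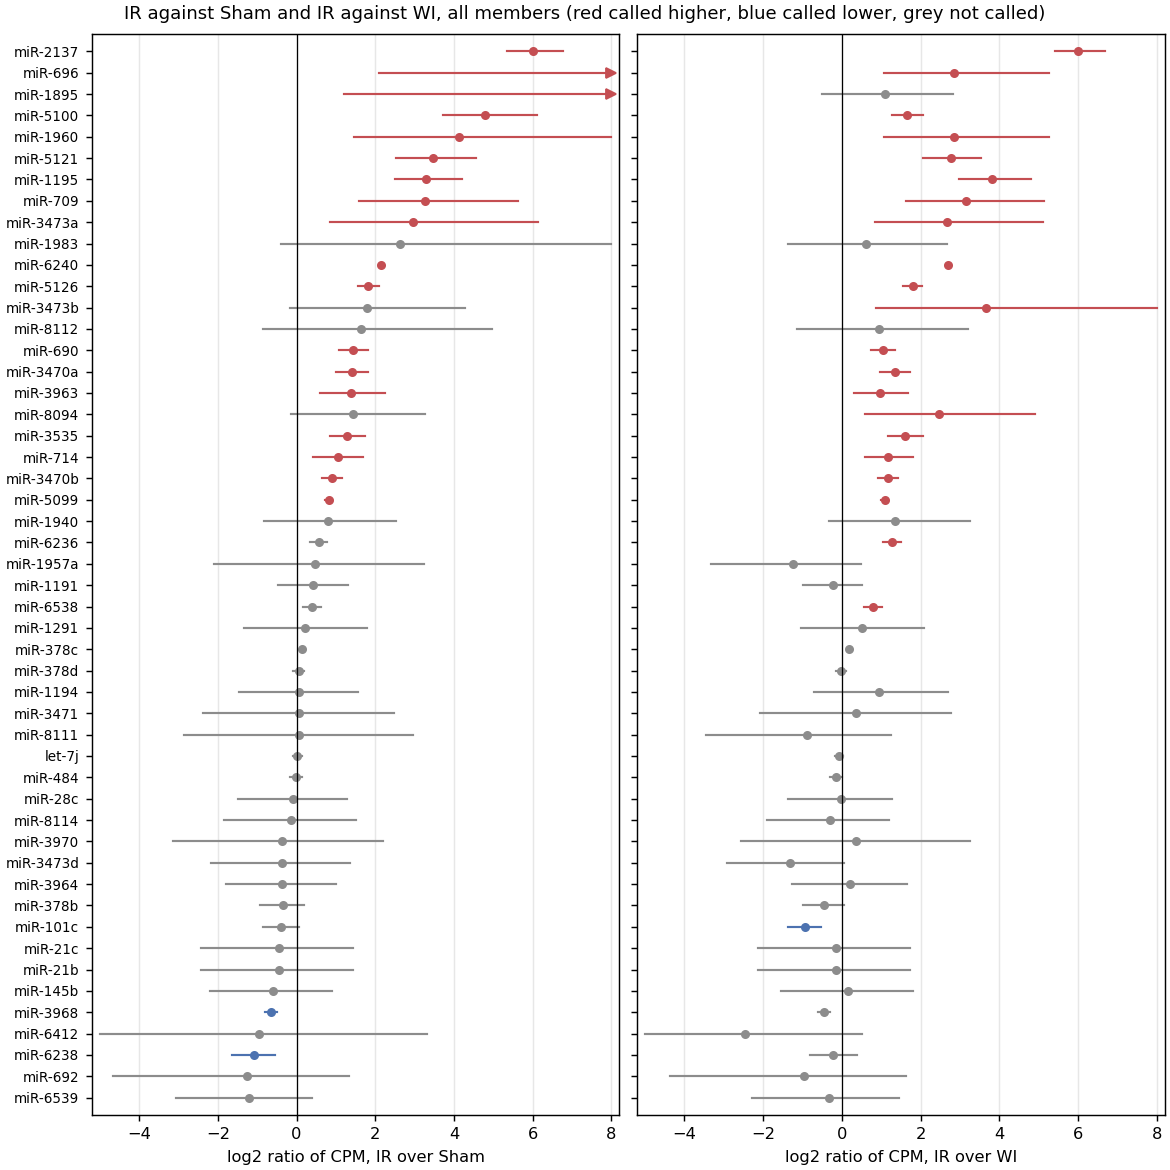
Log2 ratio of CPM (no pseudocount) for IR over Sham and IR over WI in each of the 50 members, with exact 95% intervals of counting error, in red where called higher, blue where called lower and grey where not called. Intervals are clipped at the ends of the axis, an arrow marks a member with no Sham reads, and 18 members are red on the left and 21 on the right.

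The relatives of abundant families and miR-484 stayed closer to Sham. miR-378c, a relative of the miR-378 family that is tied to lipid and mitochondrial metabolism, had 6307, 7632 and 6754 reads (1593, 1569 and 1766 CPM). IR was 1.11-fold above Sham (1.07 to 1.15), an interval that excludes 1 but a change far under the limit for a call. miR-378d had 847, 1094 and 849 reads (214, 225 and 222 CPM) and a ratio of 1.04 (0.943 to 1.14). let-7j, a relative of the let-7 family that restrains growth genes, had 1190, 1565 and 1167 reads (301, 322 and 305 CPM) and a ratio of 1.02 (0.936 to 1.10). The direction of these 3 small differences turned with other scalings. miR-484 had 637, 867 and 610 reads, and its ratio was 0.992 (0.886 to 1.11). miR-378b had 65, 86 and 49 reads with a ratio of 0.781 (0.528 to 1.15), and miR-1191 had 21, 40 and 27 reads. Neither was called in any comparison.

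The remaining members had fewer than 50 reads and were called nowhere. Most of those with 19 reads or more had their highest level in Sham or WI. miR-28c had 11, 13 and 10 reads, miR-3473d had 8, 19 and 6, and miR-3964 had 12, 10 and 9. miR-145b, a relative of the smooth muscle microRNA miR-145a, had 11, 8 and 7 reads, miR-8114 had 8, 11 and 7, and miR-1291 had 8, 8 and 9. miR-6539 had 12, 8 and 5 reads, miR-1194 had 9, 6 and 9, and miR-1957a had 3, 12 and 4. The intervals of all 9 held 1 in every comparison. miR-1940 had 6, 5 and 10 reads, with an IR to Sham ratio of 1.73 and an interval of 0.568 to 5.78. miR-21b and miR-21c had identical reads in every library, 7, 7 and 5, and may hold the same reads. The lowest were miR-8111 (3, 7 and 3 reads), miR-1983 (1, 5 and 6), miR-3471 (4, 4 and 4), miR-692 (5, 5 and 2) and miR-8112 (2, 4 and 6).

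Between the WI and Sham libraries, 3 members were called. Against Sham, 1 member (2%) was called higher in WI (miR-5100) and 2 (4%) lower (miR-6236 and miR-6238). Over all microRNAs 2.45% and 0.891% were called, and nothing about the members is read from counts this small. The median log2 fold change was -0.015 for the members and 0.035 for all microRNAs, and 24 of 50 members were above Sham. For 41 members the interval held 1. Of the members with at least 50 reads, the highest ratios after miR-5100 were 1.63 for miR-5121 (0.727 to 3.89) and 1.55 for miR-1191 (0.893 to 2.77), both with intervals that hold 1.

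Members related by number to an arm-named microRNA lay closer to Sham than the rest, as a description of these libraries. The 10 such members (let-7j, miR-101c, miR-1191, miR-145b, miR-21b, miR-21c, miR-28c, miR-378b, miR-378c and miR-378d) had a median log2 fold change of -0.22 for IR against Sham, and none was called. The other 40 had a median of 0.97, with 18 called higher and 2 lower, where 9.8% and 2.45% of all microRNAs were called. With 10 members in the first class, a count of 0 is close to that share. Agreement with the arm-named partners was mixed. miR-378a-3p had 44759, 56816 and 48797 reads and a log2 fold change of 0.18, beside 0.15 for miR-378c and -0.35 for miR-378b. miR-101a-3p had 14442, 22703 and 11812 reads and was also highest in WI, with -0.60 for IR against WI beside -0.94 for miR-101c. For IR against Sham, miR-21b and miR-21c (both -0.41) differed in sign from miR-21a-5p (0.49), and miR-1191 (0.41) from miR-1191b-5p (-0.35), although the intervals of these 3 members and of miR-378b held 1. The 19 bases of miR-101c match miR-101a-3p without a mismatch, and let-7j has 1 mismatch to let-7i-5p over 22 bases. As the alignment allowed 1 mismatch, reads of these entries may come from the far more abundant partner, and their own levels are uncertain. The paper gives no settings for the later miRDeep2 step that assigned reads to mature entries. The comparison covered the 343 arm-named microRNAs with a sequence outside chromosome 18, so closer partners could be missed. Whether reads of miR-378b, miR-378c and miR-378d come from miR-378a-3p was not tested.

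The sequences of the members differed from those of arm-named microRNAs in composition and copy number. Their median GC content was 54.5%, against 47.8% for the 343 arm-named microRNAs with a sequence. A GC content of at least 70% was found in 6 members (16.2%) and in 1.17% of arm-named microRNAs. Of these 6, miR-1895, miR-2137 and miR-5126 were called higher in IR against Sham, where 9.8% of all microRNAs were. Among them, miR-1895 reached the read minimum only with its IR reads. miR-6236, miR-6538 and miR-8112 were not called, and the interval of miR-8112 held 1 (0.556 to 31.5). The first base was U in 40.5% of members and 41.4% of arm-named microRNAs, so that feature of many Argonaute-bound strands did not separate the classes.

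**Figure D5:**
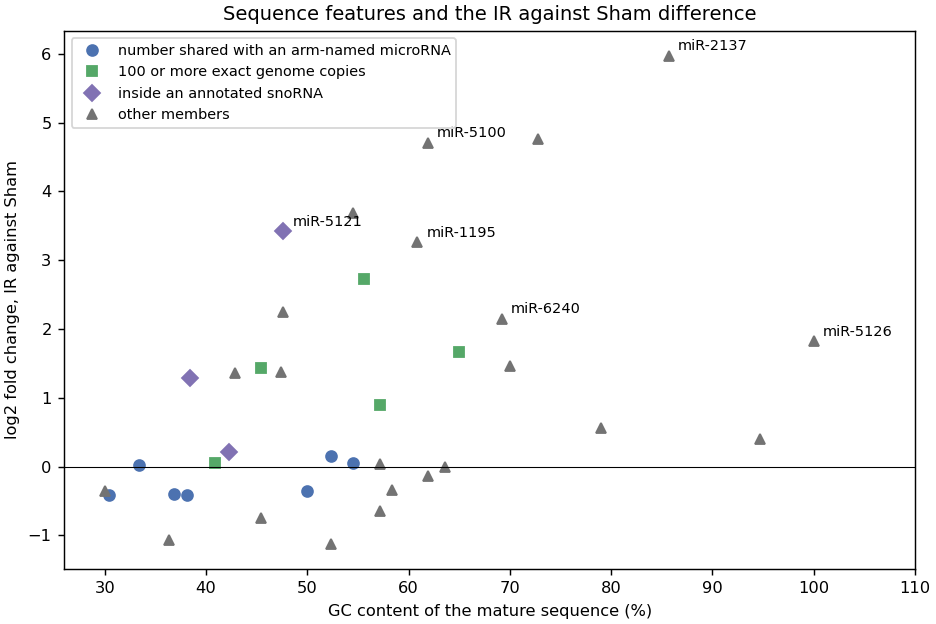
Log2 fold change for IR against Sham of the 37 members with a sequence, against GC content of the mature sequence (%), with symbols for the number shared with an arm-named microRNA, 100 or more genome copies, position inside a snoRNA, and other members. The 6 members at 70% GC or more have points above 0, 3 of them called, and the members that share a number lie between -0.41 and 0.15.

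Exact matches at 100 or more places of the genome were found for 5 members, which is 13.5% of those with a sequence, against 0.292% of arm-named microRNAs. miR-3470b had 42877 exact copies, miR-3473b 25053, miR-3473a 9632, miR-3471 5079 and miR-690 601. Alignment was limited to 5 positions per read, a limit that exact full-length reads of these entries exceed. Mature entries were counted in the later miRDeep2 step, and how the listed reads passed the alignment limit was not tested. miR-3470b, miR-3473a and miR-690 were called higher in IR against Sham, where 9.8% of all microRNAs were. Among them, miR-3473a reached the read minimum only with its IR reads. miR-3473b and miR-3471 were not called in that comparison, and their intervals held 1 (0.889 to 19.5 and 0.193 to 5.56). miR-3473a and miR-3473b share a run of 16 bases. Of the 3 entries inside a snoRNA, miR-3535 and miR-5121 were called higher, beside the same 9.8%. miR-1291 in Snora34 was not, with a ratio of 1.17 (0.399 to 3.47).

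The pentamer CGAAT, searched on the mature strand only, was in miR-5100 and miR-3968, 5.41% of members, in 0.875% of arm-named microRNAs and in 0.418% of the 1674 mature sequences of the table. These 2 entries share the 9 bases CGAAUCCCA but went opposite ways, with log2 fold changes of 4.71 and -0.64 for IR against Sham. The pentamers TTCGA and GGGGG were each in 1 member, miR-1195 and miR-5126. Of the 28 members with a single genome copy, 12 lay outside other genes, 8 in an intron of a coding gene on the same strand, 4 in an exon of one, 3 only antisense to a gene, and 1 (miR-1895) in a lincRNA exon. The exonic 4 were miR-5121 in Rpl13a, miR-8094 in Ddx39b, miR-8112 in Krcc1 and miR-8114 in Glul, the glutamine synthetase gene of pericentral hepatocytes. An exon of any annotated transcript of the gene counted, so these sites can be intronic in other transcripts.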

How the data were processed

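Small RNA from 1 Sham, 1 WI and 1 IR liver library was measured. The authors aligned reads with Bowtie (version 0.12.7 in the submitters' processing notes), allowing 1 mismatch and at most 5 positions. In the paper, HTSeq then sorted the alignments by RNA type, and miRDeep2 turned the microRNA reads into profiles of mature microRNAs. Raw counts per mature microRNA were deposited. The methods name mm9 and the labels mm10.

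From the counts, CPM were computed with TMM factors (edgeR 4.0.16, R 4.3.3), and log2 fold changes on CPM plus 0.1. Intervals were exact Poisson, conditional binomial (Clopper-Pearson) or Wilson (Python 3.11.15, scipy 1.17.1). Fisher's exact test served as a call rule over the 449 microRNAs with at least 10 reads. The rule was tested on simulated counts with counting error but no variation between animals, so that test does not cover such variation. With 1 library per group, edgeR's quasi-likelihood test could not be fitted.

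The members and lists were chosen with earlier results of these data known. Every member was named with its reads. Folds were given for miR-2137, miR-5100, miR-6240, miR-1195, the 6 members with most reads, and, from 50 reads, the 10 largest rises and 5 largest falls in IR against Sham and the 3 largest of each in WI against Sham. Folds or intervals of miR-709, miR-696, miR-1895, miR-1940, miR-6538, miR-8112, miR-3473b, miR-3471, miR-3470b, miR-714 and miR-1291 were added after their values were seen. Marker lists covered hepatocytes, red blood cells, leukocytes, striated muscle and endothelium, and the 2 endothelial names had no row. Alternatives covered scaling (DESeq2 1.42.0 size factors among them), read minimum, pseudocount, call limits, thinning and left-out members. Sequences came from RefSeq (GRCm38.p6) and genes from GENCODE vM1.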

Additional observations from a re-analysis of the deposited data

How the results depend on the processing

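No paired analysis was possible because each group has 1 library, and for the same reason no replicate could be left out. Assuming a coefficient of variation between animals of 0.4, which these data cannot measure, 6 members stayed called higher in IR against Sham and 5 against WI, and with 0.2 the counts stayed within 1.5 times the reported ones. The members called lower were 0 in each of the 3 comparisons under both values. At a 2-fold limit, 1 stayed lower in IR than in Sham, and 0 in the other two comparisons. Scaling to genome-aligned reads gave 3 called lower in IR against WI, and 2 higher and 1 lower in WI against Sham, with medians of 0.23 (IR to Sham), 0.35 (IR to WI) and 0.14 (WI to Sham). It moved the median of all microRNAs to -0.15, -0.34 and 0.19. Shares of all microRNAs called under these assumed variations, limits and scaling are not given here. Nothing about the members against the rest is therefore read from these changed counts. Lowering the minimum to 1 read gave 67, 60 and 45 of 102 names higher, with medians of 0.18, 0.30 and 0. Raising it to 50 reads gave 19, 16 and 12 of 24, with medians of 0.86, 1.06 and 0.012. IR reads count toward that minimum, which favors members that rise in IR. The median for IR against WI was 0.42 with a pseudocount of 1 and 0.79 with libraries thinned to equal depth. Without miR-2137, miR-5100, miR-6240 and miR-1195, medians were 0.30, 0.40 and 0.0051, and 0 members were called higher in WI against Sham. The members' share was 0.267%, 0.216% and 0.649% in Sham, WI and IR without miR-378c, and 0.798% in IR without miR-2137. Of 378 single-member values, 348 held their sign and side of the limits, 3 fell out of the calls, 6 entered them, and 21 turned sign. Genome-aligned scaling gave miR-378c -0.019, -0.15 and 0.13 in the order above, let-7j -0.15 and miR-378d -0.11 for IR against Sham, and miR-2137 0.14 for WI against Sham. For IR against Sham, let-7j was -0.0040 with DESeq2 size factors, -0.0056 with plain totals and -0.042 with totals that leave out the 10 top microRNAs, where miR-378d was -0.011. Plain totals gave miR-378d 0.054 for IR against WI, and for WI against Sham let-7j -0.0024, miR-378d -0.028, miR-5126 -0.068 and miR-3470a -0.051. In that comparison, totals without the 10 gave miR-378d -0.010, miR-5126 -0.050 and miR-3470a -0.033, DESeq2 size factors gave miR-5126 -0.012, and thinning gave miR-5126 -0.11 and miR-378b -0.11. Calls were gained with genome-aligned scaling by miR-3968 and miR-378b, lower in IR against WI (both -0.77), and by miR-101c, higher in WI against Sham (0.70). The cause of these moves was not tested.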
